A study of Mus musculus with 12 samples.

Results

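Of 11014 merged open chromatin regions in mouse embryoid bodies, 348 (3.16%) carried a peak summit in all 4 libraries of day 10 and in none of the 8 libraries of days 3 and 5. These day 10 only regions were chosen by the presence of summits by day, taking the 4028 highest-scoring summits of each library, the length of the shortest list, on chromosomes 1 to 19 and X. Summits were then merged into regions wherever neighbours lay within 250 bp. Presence by day and the score ranks behind it are therefore a description and carry no test. By the same rule, 1804 regions had a summit in all 4 day 10 libraries whatever the earlier days held, and 757 had one in all 12 libraries. A summit in all 4 libraries of day 3 and in no other library was found at 170 regions, and the same for day 5 at 7. The reverse case, a summit in all 8 earlier libraries and in none of day 10, gave 81 regions. It asks for 8 libraries in place of 4 and so is a stricter demand.

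The study measured chromatin accessibility by ATAC-seq in embryoid bodies grown from embryonic stem cells in mesodermal conditions, with 2 libraries in each of 6 groups. At day 10 the groups were Foxk1 knockout (KO) and libraries labelled Control. At days 3 and 5 they were Foxk1 KO and the iHA-Foxk1 line, and the labels describe the libraries of all groups as without doxycycline. Stem cells of every line grew on a feeder layer of irradiated fibroblasts, and a plating step took the feeders away before differentiation. Whether the day 10 Control is the iHA-Foxk1 line, which part of Foxk1 was deleted and whether a group stands for 1 clone are not given in the labels, and summit lists do not check the knockout. No label states that replicate libraries are separate cultures, so p-values measure the spread between libraries, which may be technical.

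ATAC-seq inserts sequencing adapters with the transposase Tn5 into DNA that is not wrapped tightly around nucleosomes, so that open promoters and enhancers gather reads. Promoters of widely used genes tend to stay open in most cells, whereas regions far from genes, many of them enhancers, differ more between cell types and stages. Embryoid bodies are aggregates of differentiating stem cells in which, in these conditions, mesoderm and later its derivatives form, and Foxk1 is a forkhead transcription factor. A list of peaks reads a mixture of cells, and fewer cells of a type and less open chromatin per cell cannot be told apart in it.

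Few day 10 only regions touched a promoter: 7 overlapped the window from 250 bp before to 50 bp after a RefSeq start site (GRCm38.p6, the assembly of mm10). The 4 windows below show the range from a region with no earlier summit to one with a lower-ranked summit in every earlier library. Capitals mark the stretch from the first to the last of the 4 day 10 summits.
Gm41331: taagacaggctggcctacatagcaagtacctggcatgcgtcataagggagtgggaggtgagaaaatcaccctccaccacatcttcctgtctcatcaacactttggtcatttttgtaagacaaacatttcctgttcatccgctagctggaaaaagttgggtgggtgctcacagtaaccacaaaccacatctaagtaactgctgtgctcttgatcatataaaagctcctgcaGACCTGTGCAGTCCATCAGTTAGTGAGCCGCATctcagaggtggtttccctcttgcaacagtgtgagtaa
Nfyc: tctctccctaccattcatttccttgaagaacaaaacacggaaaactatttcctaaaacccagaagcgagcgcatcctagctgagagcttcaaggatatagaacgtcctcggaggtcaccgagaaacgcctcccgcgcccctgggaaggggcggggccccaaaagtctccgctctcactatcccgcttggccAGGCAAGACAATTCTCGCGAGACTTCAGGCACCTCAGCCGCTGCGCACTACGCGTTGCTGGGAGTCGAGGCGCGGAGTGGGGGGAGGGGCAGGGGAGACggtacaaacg
Sp3: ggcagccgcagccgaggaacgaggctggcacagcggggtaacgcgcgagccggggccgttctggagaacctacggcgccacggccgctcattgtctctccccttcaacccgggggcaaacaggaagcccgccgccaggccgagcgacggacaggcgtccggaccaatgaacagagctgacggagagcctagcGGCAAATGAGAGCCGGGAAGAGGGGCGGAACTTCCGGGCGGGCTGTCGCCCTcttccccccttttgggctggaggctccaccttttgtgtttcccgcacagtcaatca
Sec63: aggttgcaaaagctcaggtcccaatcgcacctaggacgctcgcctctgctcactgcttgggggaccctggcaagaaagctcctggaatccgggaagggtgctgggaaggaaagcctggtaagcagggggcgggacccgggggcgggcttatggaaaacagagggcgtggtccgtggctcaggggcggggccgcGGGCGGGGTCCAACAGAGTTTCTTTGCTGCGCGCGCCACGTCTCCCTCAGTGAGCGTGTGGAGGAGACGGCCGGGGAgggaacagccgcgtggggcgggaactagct
Gm41331 (chr15:60141661-60141960, plus strand) has a window with 47% GC, 3 CpG dinucleotides and a TATA box (TATAAA), and its summits ran from 20 bases before to 12 bases after the start site. No summit of any earlier list lay within 1 kb of it, and its ranks, counted from 1 for the highest score of a list, were 344 and 405 in KO and 1234 and 399 in Control libraries. Nfyc encodes a subunit of the CCAAT-binding factor NF-Y (chr4:120825692-120825991, minus strand), and its window holds 58.7% GC and 23 CpG. This start site lies inside the gene record, 5779 bp from its nearer end, and 2 earlier lists had a summit within 250 bp. Within 1 kb all 8 had one, in 3 of them among the best 4028.

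Sp3, a zinc finger factor that binds GC boxes (chr2:72980397-72980696, minus strand), had 66.7% GC and 29 CpG, and 5 earlier lists held a lower-ranked summit within 250 bp. Sec63, a part of the protein translocation machinery of the endoplasmic reticulum (chr10:42761246-42761545, plus strand), had 66.3% GC and 23 CpG, and all 8 earlier lists held one. Over the 32585 windows of the table the medians were 53% GC and 7 CpG. On either strand, the GC box letters GGGCGG stood in the windows of Nfyc, Sp3 and Sec63 and in 35.9% of all windows. CCAAT stood in those of Sp3 and Sec63 and in 37.6% of all, and TATAAA in that of Gm41331 and in 13.7% of all. The forkhead letters TGTTTAC were in none of the 8 different windows touched by a day 10 only region, and in 3.67% of all windows. These are letter matches within short windows and say nothing about bound factors.

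Most day 10 only regions lay far from the ends of protein-coding genes. Within 1 kb of a gene end there were 16 of the 348 (4.60%). A further 130 (37.4%) lay inside a gene body and 202 (58.0%) lay elsewhere. Regions in all 12 libraries showed the opposite make-up, with 82.8% at gene ends, 9.51% in gene bodies and 7.66% elsewhere. Regions in all 4 day 10 libraries had 64.6%, 15.6% and 19.8%, and the day 10 only regions are part of these. Median distance to a gene end was 31744 bp for day 10 only regions, against 69.5 bp for regions in all 4 day 10 libraries and 8 bp for regions in all 12.

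**Figure D1:**
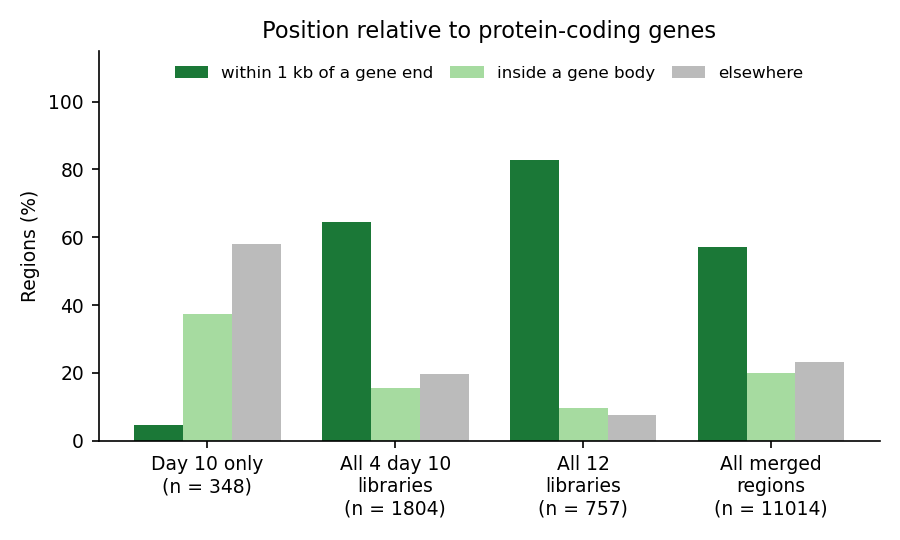
Share of regions (%, y axis) within 1 kb of an end of a protein-coding gene, inside a gene body and elsewhere, for day 10 only regions, regions in all 4 day 10 libraries, regions in all 12 libraries and all merged regions (x axis, with the number of regions). Gene ends hold 4.60% of the day 10 only regions and 82.8% of the regions in all 12 libraries.

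A start site could be used in place of either gene end on the chromosomes other than 18 that the promoter table covers. There, 14 of 335 day 10 only regions (4.18%) lay within 1 kb of a start site, against 62.9% of 1745 regions in all 4 day 10 libraries and 80.8% of 733 regions in all 12. Gene-body regions sat in long genes, with a median host of 113 kb for day 10 only regions, 86.6 kb for regions in all 4 day 10 libraries and 62.8 kb for those in all 12. In day 10 only regions the best summits of the 4 day 10 libraries spanned a median of 48 bp. The span was 92 bp for regions in all 4 day 10 libraries and 114 bp for those in all 12. It measures how closely summit positions agree between libraries and not the width of a region.

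The share at gene ends changed in size with the libraries used. It was 8.58% with KO replicate 1 of day 10 left out and 8.29% with KO replicate 2 left out. Whole lists behaved differently from the day 10 only regions. Of the 4028 best summits per library, 54.9 ± 3.27% lay at gene ends in KO day 10 and 70.7 ± 2.84% in Control day 10 (SD, n = 2 each), with 68.6 ± 0.431% at day 3 and 80.6 ± 1.17% at day 5 (SD, n = 4 each). Day 10 averaged 62.8 ± 9.49% (SD, n = 4) and the earlier days 74.6 ± 6.50% (SD, n = 8), a difference of −11.8 percentage points. A two-sided exact permutation of the day within genotype arms gave p = 0.04, which did not pass after Benjamini-Hochberg adjustment over 4 tests (adjusted p = 0.16). It takes the Control libraries of day 10 and the iHA-Foxk1 libraries as 1 arm, which the labels do not state. With all summits in place of the best 4028 the difference was +29.6 points (exact permutation p = 0.00444), so its sign depends on the depth of the list. Full lists held 4028 to 10548 summits at day 10 and 14519 to 59006 earlier, so day and list length cannot be told apart there. Day 10 only regions hold places among the best 4028 of every day 10 list and of no earlier list. They are thus part of the difference, which is no separate evidence about them.

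Day 10 only regions stood in the upper part of the day 10 lists, with a smaller share of ranks 1 to 100 than of ranks 101 to 300. Their median rank was 312.5 and 315.5 in the KO libraries and 510.5 and 392 in the Control libraries. Among ranks 1 to 100 they held 20 and 20 places in KO and 19 and 19 in Control. Between ranks 101 and 200 they held 61% and 63% of places in KO and 54% and 61% in Control. The share was highest between 201 and 300, at 85% and 78% in KO and 61% and 73% in Control. Between ranks 501 and 1000 it was lower than among the first 100, at 9.2% and 10.6% in KO and 7.2% and 10% in Control. Past rank 2000 they held 13 and 16 places in KO and 93 and 52 in Control.

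**Figure D2:**
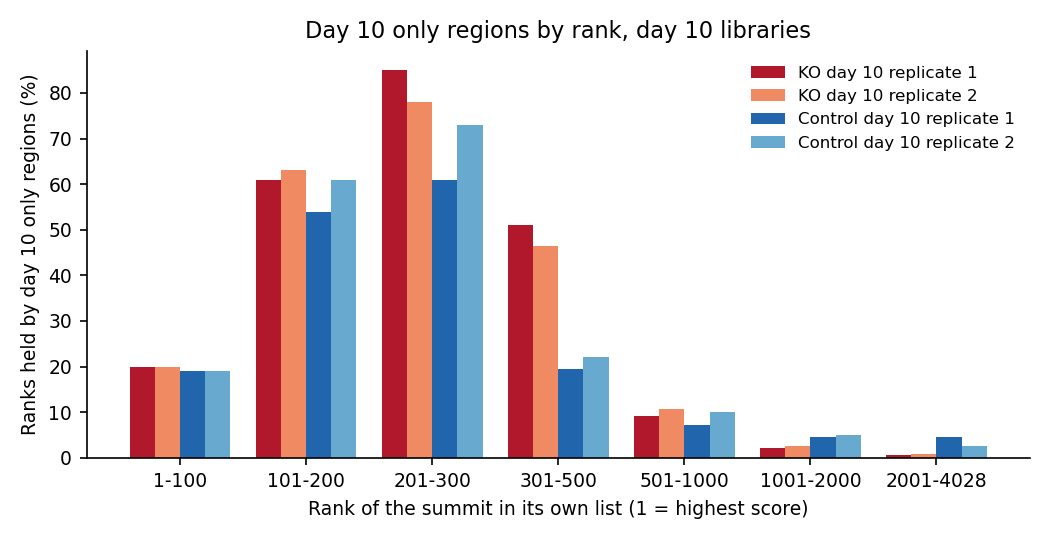
Share of the places in each band of ranks that day 10 only regions held (%, y axis), by rank in the library's own list (x axis, 1 is the highest score), with 1 bar per day 10 library. Between ranks 201 and 300 the share is 85% and 78% in the KO libraries and 61% and 73% in the Control libraries.

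Scores are the authors' own value of each summit, a −log10 p-value or q-value, and were used to compare regions within a list. Inside the KO lists the median score of day 10 only regions was 29.8 and 29.7, against 9.20 and 10.4 for regions in all 12 libraries, a ratio of 3.24 and 2.86. Inside the Control lists it was 32.0 and 26.4, against 25.3 and 17.1, a ratio of 1.26 and 1.55. In KO, 93.1% and 92.2% of day 10 only regions scored above the median of the regions in all 12 libraries, and in Control 58.6% and 71.0% did. Membership needed a high rank on both sides, so these values carry no test.

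**Figure D3:**
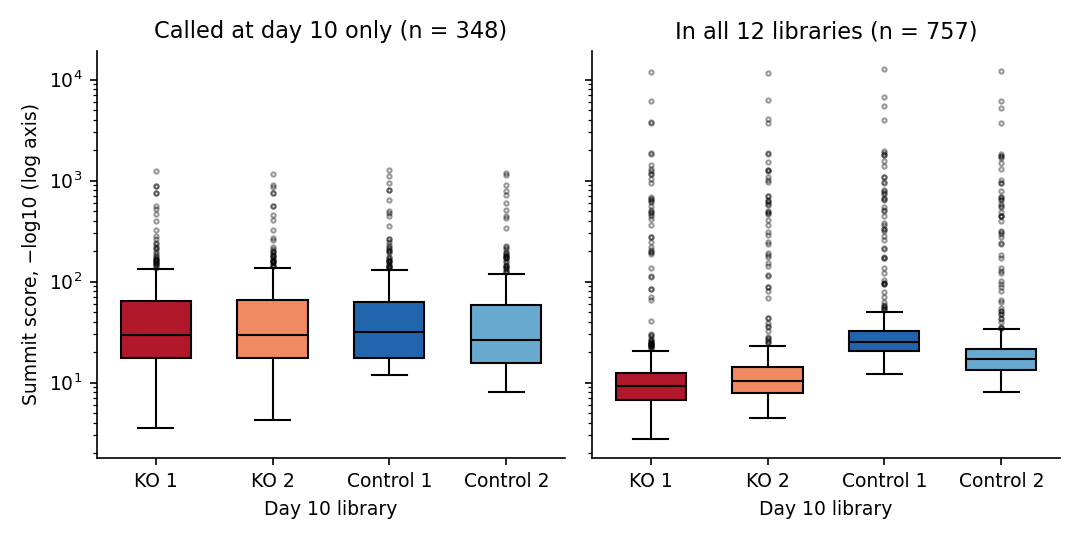
Summit score (−log10, log y axis) in each day 10 library (x axis) for day 10 only regions on the left and regions in all 12 libraries on the right; boxes are quartiles with the median, whiskers reach 1.5 times the box height, and points are regions beyond. Medians are 29.8 and 29.7 in KO and 32.0 and 26.4 in Control on the left, and 9.20 and 10.4 in KO and 25.3 and 17.1 in Control on the right.

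The best-ranked day 10 only region lay 114857 bp from Gm2244 (chr14:19418842-19418843), at ranks 20 and 22 in KO and 22 and 22 in Control. Next came a region 12955 bp from Abcb11, which encodes the bile salt export pump (chr2:69355571-69355635), at ranks 30 and 30 in KO and 26 and 25 in Control. These places differ by a handful of ranks between the 4 libraries. A region inside 2210408I21Rik (chr13:77438963-77438997) stood at 33 and 34 in KO and 34 and 35 in Control. Near Pak3, a p21-activated kinase (chrX:143483043-143483091), the ranks were 34 and 33 in KO and 35 and 34 in Control. None of these 4 had an earlier summit of any score within 1 kb, although the nearest to the Gm2244 region lay 1542 bp away.

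Among the 15 best were also regions near Diaph3, a formin that builds actin filaments, 456270 bp away, and near Rfc3, a subunit of the clamp loader of DNA replication, 83391 bp away. Ranks were 44 and 46 in KO and 53 and 48 in Control for Diaph3, and 52 and 53 in KO and 54 and 53 in Control for Rfc3. A region 1033451 bp from Lrrc4c, a synaptic adhesion protein gene (chr2:98665123-98665125), had ranks 63 and 60 in KO and 62 and 60 in Control. In a fixed window around this region, each day 10 library had 3 summits and each earlier library had 2. A region 18666 bp from Chst2, a carbohydrate sulfotransferase, overlapped the pseudogene Gm19193. It stood at 74 and 71 in KO and 79 and 80 in Control. The nearest coding gene to chr13:116192898-116192968 was Isl1, a LIM homeodomain factor of heart progenitors and motor neurons, 105302 bp away, with ranks 78 and 82 in KO and 90 and 83 in Control. Of the 15 best, 13 had no earlier summit within 1 kb. The exceptions were chr9:3007223-3007226, with one within 1 kb in all 8 earlier lists, and a region 23154 bp from Dnttip2, with one within 250 bp in 4. Some of the 13 had an earlier summit not far past 1 kb. Besides the Gm2244 region, it lay 1148 bp from chr9:3002140, 1606 bp from chr17:13551031-13551043 and 1840 bp from chr2:98665123-98665125. For the others of the 13 it lay 5778 to 47561 bp away. Next among regions without an earlier summit within 1 kb came one 173358 bp from Kcnh8, a voltage-gated potassium channel gene, at 85 and 87 in KO and 97 and 89 in Control. Another lay 40385 bp from Stt3b, a catalytic subunit of oligosaccharyltransferase, at 92 and 100 in KO and 102 and 99 in Control.

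The label "day 10 only" held for the matched list length and for fewer regions in the full earlier lists, which had between 14519 and 59006 summits. Of the 348 regions, 155 (44.5%) had no earlier summit of any score within 1 kb. A further 22 (6.32%) had one within 1 kb and none within 250 bp, and 171 (49.1%) had one within 250 bp. The highest earlier score at these 171 was above every day 10 score in 21 and above the day 10 median in 31. It was below every day 10 score in 122, and scores of separate lists are not on the same scale. Among the 155, the nearest earlier summit was a median 8819 bp away (1032 to 151597 bp), with 74 over 10 kb and 8 over 50 kb. Farthest from one were a region 175544 bp from Rbfox1, an RNA-binding splicing regulator, one 693055 bp from Diaph2, a formin, and one inside Lrp1b, a large lipoprotein receptor gene. The nearest earlier summit lay 151597, 145513 and 72468 bp from these regions, which were picked after their values were seen. Their ranks were 156 and 161 in KO and 170 and 176 in Control for Rbfox1, 139 and 98 in KO and 137 and 128 in Control for Diaph2, and 253 and 226 in KO and 210 and 200 in Control for Lrp1b. At the other end, 5 regions had a summit within 250 bp in all 8 full lists: those near Gm4981, Pisd, Marf1, Tssk6 and Sec63. Within 1 kb, 24 regions did. In 16 regions a summit among the best 4028 of an earlier library lay between 250 bp and 1 kb away, outside the merging distance of the rule.

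Regions with no earlier summit within 1 kb stood higher in the day 10 lists than those with one within 250 bp. Their median ranks were 265 and 265 in KO and 300 and 266 in Control. Regions with an earlier summit within 250 bp had 361 and 356 in KO and 926 and 627 in Control. None of the 155 ranked past 2000 in a KO library, against 11 and 14 of the 171. Gene ends held 3 of the 155 (1.94%) and 13 of the 171 (7.60%).

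Single earlier libraries contained a summit within 250 bp at very different numbers of these regions. In the full lists it was at 70 and 88 regions in KO day 3 and 101 and 102 in iHA-Foxk1 day 3. At day 5 it was at 89 and 84 in KO and at 12 and 130 in iHA-Foxk1, whose replicate 1 had the shortest earlier list (14519 summits). Cut to 14519 summits each, the lists had 10 and 17 in KO day 3, 19 and 17 in iHA-Foxk1 day 3, 31 and 40 in KO day 5 and 12 and 38 in iHA-Foxk1 day 5. Day 5 thus averaged 8.69 ± 3.67% of the 348 regions and day 3 4.53 ± 1.13% (SD, n = 4 each), and iHA-Foxk1 day 5 replicate 1 lay among the day 3 values. The difference of 4.17 points is a description with no test, since absence from the best 4028 of these lists chose the regions. It was −3.30 points on the full lists, and 9.004 points with the lists cut to 34040 summits and iHA-Foxk1 day 5 replicate 1 left out.

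Values of KO and iHA-Foxk1 libraries of these days overlapped: 7.04 ± 3.89% of the regions had such a summit in KO and 6.18 ± 3.27% in iHA-Foxk1 (SD, n = 4 each), a difference of 0.862 points. Its sign depended on single libraries and on the list length, at −0.623 points without KO day 5 replicate 2, −0.0479 without iHA-Foxk1 day 5 replicate 1, and −6.66 without the same library and with lists cut to 34040 summits. In both KO lists of day 5 the peak names are tagged D7, against day 5 in the labels, which were followed. Peak names of days 3 and 5 hold a duplicate-removal tag that those of day 10 lack. Day 10 and this change of processing cannot be told apart for any region described here.

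**Figure D4:**
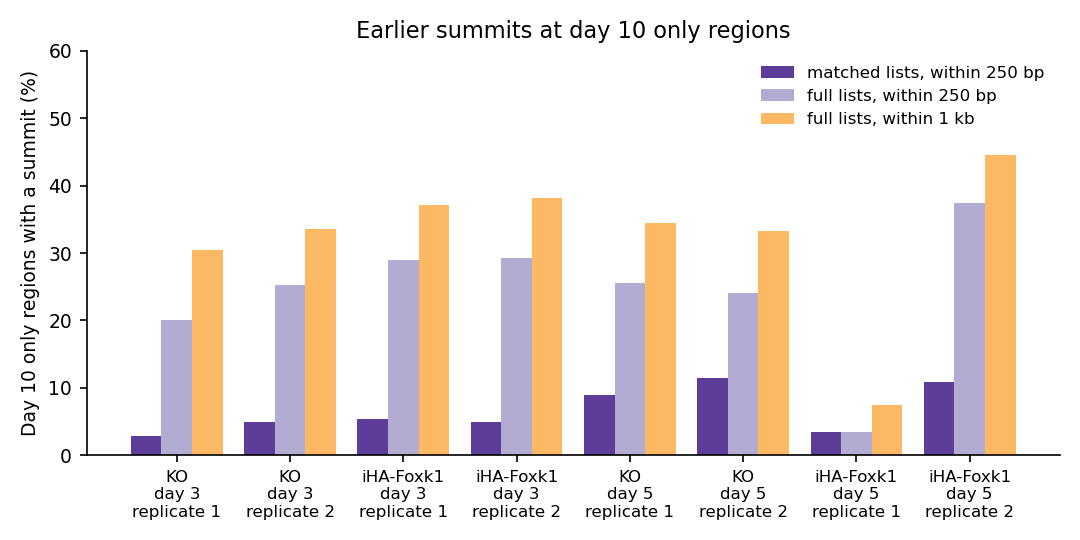
Share of the 348 day 10 only regions (%, y axis) with a summit in each library of days 3 and 5 (x axis), within 250 bp in lists cut to 14519 summits, within 250 bp in the full lists and within 1 kb in the full lists. The full lists reach 37.4% at 250 bp in iHA-Foxk1 day 5 replicate 2, and 3.45% in its replicate 1, the shortest earlier list.

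Within day 10, the regions had better mean ranks in the KO than in the Control lists. Mean rank over the 348 was 486 and 514 in KO and 1138 and 875 in Control, so that both KO libraries lay under both Control libraries. The group means were 500 ± 19.98 in KO and 1007 ± 185 in Control (SD, n = 2 each), a difference of −506. Membership limited these ranks to the best 4028 of each list, so the difference is a description with no test. Regions in all 12 libraries ran the other way, at 1487 ± 53.4 in KO and 1167 ± 87.2 in Control, and regions in all 4 day 10 libraries had 1444 ± 42.8 in KO and 1300 ± 7.34 in Control.

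Counted region by region, 188 of the 348 (54.0%) had both KO ranks better than both Control ranks, against 18.7% of regions in all 4 day 10 libraries. Another 19 (5.46%) had both KO ranks worse, against 25.6%. Places in a list are shared out among its summits, and regions in all 12 libraries, most of them at gene ends, had the worse ranks in KO. Whether this lies behind the better KO ranks of the day 10 only regions was not tested. Summits at gene ends were also taken out of each list before ranking. Mean ranks of the remaining 332 day 10 only regions were then 355 and 353 in KO and 417 and 394 in Control. The difference was −51.7, on a scale with fewer places, so its size cannot be compared with that on whole lists. It does not decide the question. On these shorter lists 119 (35.8%) were better in both KO libraries, against 24.3% of 639 regions ranked alike. Another 25 (7.53%) were worse in both, against 30.8%. With lists cut to 2014 summits the difference in mean rank was −140. As a percentile of the full list it was +0.414 points, a given rank being a smaller percentile of the longer Control lists. By score in place of rank, 72 of the 348 (20.7%) had both KO values above both Control values, against 4.99% of regions in all 4 day 10 libraries, and 71 (20.4%) had both below, against 71%. Scores of separate lists are not on 1 scale, and a place in a list is no measure of how open a region is, and depth behind the lists is unknown.

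**Figure D5:**
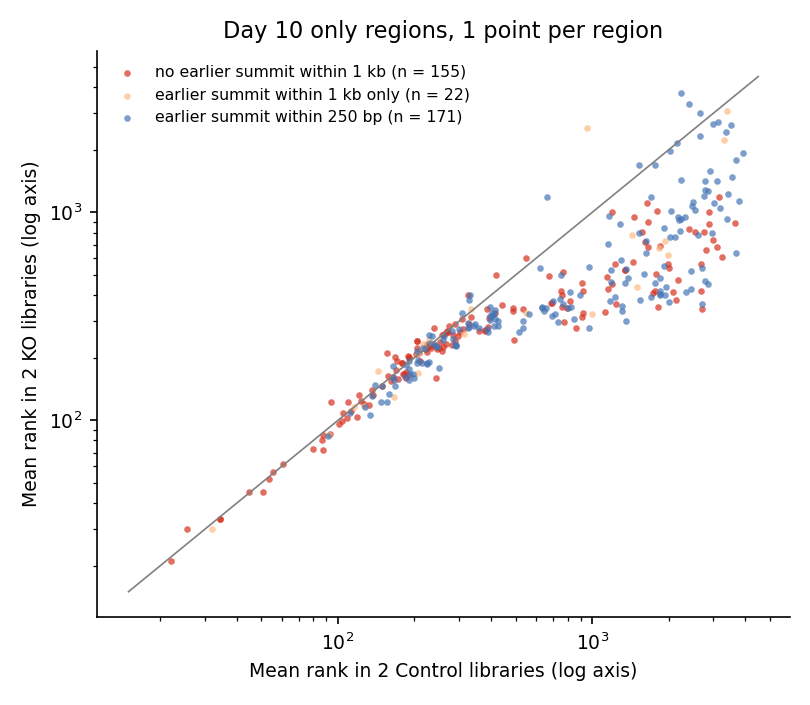
Mean rank in the 2 KO libraries (log y axis) against mean rank in the 2 Control libraries (log x axis) of day 10, 1 point per day 10 only region, coloured by whether an earlier summit lay within 1 kb or 250 bp; the line marks equal ranks. Points lie near the line for the best ranks and mostly under it farther down, and 188 of 348 have both KO ranks better than both Control ranks.

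Among regions whose KO and Control ranks did not overlap, the widest gaps in favour of KO were seen at regions in the lower part of the Control lists. Near Cyp2b23, a cytochrome P450 gene (chr7:26659787-26660015), ranks were 810 and 472 in KO and 3876 and 3465 in Control. Inside Pdia3, a protein disulfide isomerase of the endoplasmic reticulum (chr2:121436617-121436653), they were 765 and 1017 in KO and 3749 and 3571 in Control. Speer4c, Mettl21e and Gm17019 complete the 5 largest, with KO ranks between 544 and 1343 and Control ranks between 2464 and 4009. By score, KO and Control values overlapped at these 5 except at Mettl21e. Inside Pdia3 the scores were 12.6 and 11.7 in KO and 12.5 and 8.73 in Control. The score at rank 4028 was 1.85 and 4.25 in KO and 11.8 and 8.02 in Control, so wide rank gaps can go with similar scores. In the opposite direction, again without overlap of ranks, a region 31853 bp from Ptpdc1, a phosphatase gene, stood at 3169 and 1913 in KO and 675 and 1228 in Control. The promoter of Sec63 stood at 3446 and 4028 in KO and 1995 and 2468 in Control. By score too, both KO values lay under both Control values at these 2. After them the rank gaps without overlap were small: the ranks were 423 and 381 in KO and 292 and 368 in Control near Atg7, an enzyme of autophagosome formation. Inside Gnb1l the ranks were 216 and 206 in KO and 171 and 142 in Control.

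Few day 10 only regions, and few of all merged regions, had a gene of the lists for cell types and cell functions as their nearest. Over 18 lists with 348 matched genes, 6 of the day 10 only regions (1.72%) had a listed gene as the nearest coding gene within 100 kb, 3 (0.862%) within 20 kb and 0 within 1 kb. Of all 11014 merged regions, 168 (1.53%) had one within 100 kb, 145 (1.32%) within 20 kb and 94 (0.853%) within 1 kb. Among regions in all 4 day 10 libraries the counts were 21 (1.16%), 18 (0.998%) and 11 (0.610%), and among regions in all 12 they were 7 (0.925%), 7 (0.925%) and 5 (0.661%). For 0 regions was the nearest coding gene within 100 kb one of the pluripotency, streak and nascent mesoderm, cardiac progenitor, cardiomyocyte contractile, haematopoietic, paraxial and skeletal muscle, endoderm or fibroblast lists. The Hox, cell cycle, immediate early and stress, hypoxia and glycolysis and housekeeping lists had 0 as well. The smooth muscle, neural, oxidative phosphorylation and interferon lists had 1 each and the endothelial list 2. Over all 11014 merged regions those lists had 2, 8, 13 and 13, and the endothelial list 7. The lists with 0 had between 1 (haematopoietic, Hox) and 25 (cell cycle) of all merged regions. With so few over all regions, a count of 0, 1 or 2 among 348 says little about a list. Summits near a gene do not measure its expression.

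Mylk, the smooth muscle and non-muscle myosin light chain kinase, had a day 10 only region 2157 bp away (chr16:34742967-34743042) at ranks 322 and 377 in KO and 521 and 996 in Control. Tubb3, the neuronal beta tubulin, had one 9596 bp away (chr8:123431611-123431842) at 672 and 929 in KO and 2629 and 2451 in Control. In both, the KO ranks were better than the Control ranks without overlap. A region inside Haus1, with an end of Atp5a1, a subunit of mitochondrial ATP synthase, as the nearest at 2266 bp, stood at 394 and 1211 in KO and 3329 and 2167 in Control. Inside Flt1, a receptor for vascular endothelial growth factor, a region 49924 bp from the gene's nearer end (chr5:147611528-147611536) stood at 116 and 124 in KO and 128 and 126 in Control. None of these 4 had an earlier summit within 1 kb. A region inside Erg, an ETS factor of endothelium (chr16:95509615-95510106), had one within 250 bp in 7 earlier lists and stood at 2716 and 2175 in KO and 2936 and 3792 in Control. Ccr1, a chemokine receptor gene, had a region 37555 bp away at 218 and 269 in KO and 216 and 242 in Control, with an earlier summit within 1 kb in all 8 lists.

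Of the 16 regions at gene ends, 3 had no earlier summit within 1 kb. Best ranked was one 547 bp from an end of Gm32584, at 117 and 94 in KO and 119 and 149 in Control, with 7 earlier lists holding a summit within 250 bp. The 3 without one were those at Gm21814, at Cacna2d2, a calcium channel subunit gene, and at Oasl1, a gene of the oligoadenylate synthetase family. Cacna2d2 had ranks 193 and 249 in KO and 240 and 252 in Control, and Oasl1 275 and 245 in KO and 260 and 264 in Control. Ranks of these 2 overlapped between KO and Control. The others at gene ends, LOC100504180, Adgrf2, St6galnac1, Gm7697, Duxf3, Gm47655, Zfp91, Marf1, Gm51573, Sp3, Tssk6 and Sec63, had a lower-ranked earlier summit within 250 bp in at least 1 list. The region at Zfp91 lies in the start-site windows of both Zfp91 and Lpxn, which are read in opposite directions, and ranked 2153 and 724 in KO and 2993 and 1468 in Control.

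Some day 10 only regions lay in groups along a chromosome: 71 of them (20.4%) formed 25 groups with neighbours within 100 kb, and 12 groups had 3 or more. The same share was not worked out for the other sets of regions, so grouping is not shown to be particular to these. Pisd, which encodes a mitochondrial enzyme making phosphatidylethanolamine, had 5 within chr5:32726323-32738092. Another 5 lay within chr10:58224043-58239537, near LOC100504180, Duxf3 and Gm4981. Other groups of 4 are named by the nearest coding gene, which could be far away. One was 327592 to 333091 bp from Alkbh8, a tRNA-modifying enzyme gene (chr9:3002140-3007639), and one 61728 to 165393 bp from Tcte2 (chr17:13551031-13654708). The groups of Vmn1r2, a vomeronasal receptor gene (chr4:3090062-3176931), and Sfi1, a centrosome protein gene (chr11:3100501-3128437), lay 2938 to 82020 bp and 3413 to 31341 bp away. Hrh1, a histamine receptor gene, and Atg7 shared a group of 4 (chr6:114516590-114565497). Olfr161, an olfactory receptor gene, was the nearest to 4 regions 240953 to 477290 bp away, of which 2 formed a group. Mid1, a ubiquitin ligase gene at the pseudoautosomal boundary of X, Gm40035, Gm15319, Scaf8 and Snrpn, an imprinted splicing protein gene, had 3 each.

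Members of these groups did not behave alike. In the Alkbh8 group the best ranks were 29 and 31 in KO and 33 and 31 in Control, at chr9:3007223-3007226, and the group's worst mean rank was 115.75. Next to Pisd, mean ranks over the 4 libraries ran between 304.5 and 1437.75, and all 5 had an earlier summit within 250 bp. The one at chr5:32738055-32738092 stood at 499 and 359 in KO and 2495 and 2388 in Control, and the one at chr5:32734081-32734095 at 268 and 292 in KO and 414 and 244 in Control.

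Several groups lay at the start of a chromosome or at gene copies. Before position 4 Mb, where the assembled sequence of mouse chromosomes begins after the gap at the centromere, there were 25 of the 348 regions (7.18%), against 71 (3.94%) of regions in all 4 day 10 libraries and 26 (3.43%) of those in all 12. Pseudogenes of any kind overlapped 13 day 10 only regions (3.74%), against 29 (1.61%) of regions in all 4 day 10 libraries and 8 (1.06%) of those in all 12. These included Gm2420 beside Pisd on chromosome 5, Pisd-ps1 on chromosome 11 in the Sfi1 group and Pisd-ps2 on chromosome 17 in the Scaf8 group. Near-identical copies can share reads, so the division of signal among them is uncertain, and no source used here says how reads with several positions were treated. At the start of chromosome 9, before 3.05 Mb, the full lists held 25 and 24 summits in KO day 10 and 25 and 24 in Control day 10, and 14 to 22 in each earlier library. Their part in the set of regions was not tested, and no list of artefact-prone or repeated regions was used.

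Members just inside the thresholds had ranks of 4028 (Sec63, KO replicate 2), 4009 (Mettl21e, Control replicate 1) and 3947 (Gm17019, Control replicate 1) in their weakest day 10 library. Just outside were regions near Cfap20dc (4041, Control replicate 1), Pik3c3 (4062, Control replicate 1) and Fam13b (4071, KO replicate 2). On the side of the earlier lists, members reached ranks of 4160 (Gm3629, iHA-Foxk1 day 3 replicate 2), 4266 (Zfp91, KO day 5 replicate 2) and 4284 (Atrnl1, KO day 5 replicate 2). Excluded by a single earlier summit were regions near Gm8700 (4016), Spen (3942) and Garnl3 (3750). In all, 253 regions missed 1 of the 4 day 10 libraries and had no earlier summit, and 23 had all 4 and 1 earlier library.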

How the data were processed

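Each of the 12 libraries has 1 deposited list of peak summits, called per library. The authors' tools included Bowtie2 2.2.4 and MACS2 with the build mm10, per the submitters' processing notes; the MACS2 version is not given in the sources used here. The deposited score is a −log10 p-value or q-value, and the labels do not say which of the pair. The lists give neither read counts nor peak widths, so depth is unknown; full lists held between 4028 and 59006 summits. The score at rank 4028 was 1.85 and 4.25 in KO day 10, 11.8 and 8.02 in Control day 10, 12.1 in iHA-Foxk1 day 5 replicate 1 and between 45.3 and 66.7 in the other earlier libraries.

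Lists were cut, merged at 250 bp and compared with Python 3.11.15, numpy 2.4.6, pandas 2.3.3 and scipy 1.17.1, after the steps were tested on simulated lists. Where a library had several summits in a region, its best rank was taken. Gene ends came from a RefSeq gene table of GRCm38.p6 (21631 protein-coding genes, without strand or exons), and start sites and sequences from its promoter windows, which lack chromosome 18. Of 349 listed symbols, 348 matched. A region is named by its nearest protein-coding gene.

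Library values were tested by exact permutation, two-sided, within genotype arm, adjusted by Benjamini-Hochberg over 4 tests. Of these, 3 used ranks or presence of the chosen regions in the lists that chose them; their values are given with no p. Regions are not replicates, and sets of regions were described by counts. Named regions are the 15 best by mean day 10 rank, the 15 best without an earlier summit within 1 kb, those near listed genes, those of the 10 genes with most regions, the 5 largest rank differences in each direction and those nearest the thresholds; those at gene ends, in promoter windows or farthest from earlier summits were added after their values were seen. One region that the rule names is not reported here. The regions and lists were chosen with earlier results of these data known. Y, mitochondrial and contig summits were not used in the main comparisons.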

Additional observations from a re-analysis of the deposited data

How the results depend on the processing

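Of the number of day 10 only regions and their gene-end share, the number was 257 with lists cut to 2014, 239 with all summits, 321 and 361 with merging at 100 and 500 bp, and 360 with all chromosomes. Absence from the full earlier lists gave 177 regions at 250 bp and 155 at 1 kb. Leaving out each library in turn gave 348 to 486 regions. The gene-end share was 1.67% with all summits, 1.69% and 1.94% with absence from the full lists at 250 bp and 1 kb, 2.30% and 7.47% with gene ends at 500 and 2000 bp, and 4.56% to 8.58% with each library left out. Listed genes were nearest to 0 regions within 1 kb and 3 within 20 kb.

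The difference in gene-end share per library, day 10 minus earlier days, was 29.6 points with all summits, −18.3 with lists cut to 2014, −17.8 without day 3 (exact permutation p = 0.0556) and −5.75 without day 5 (exact permutation p = 0.333). Leaving out each library gave −15.1 to −8.38 (exact permutation p between 0.0333 and 0.107). The difference of day 5 minus day 3 was −3.30 points on full lists and 3.23 to 5.91 with each library left out. For KO minus iHA-Foxk1 it was −1.01 on full lists and −0.623 to 2.44 with each library left out. With lists cut to the second shortest earlier length (34040) and the shortest library left out, a choice made after seeing the data, these 2 were 9.004 and −6.66. The rank difference of KO minus Control was 0.414 as a percentile of the full list, and −637 to −375 with each library left out. Ranks among summits away from gene ends (−51.7) and regions without an earlier summit within 1 kb (−420) were added after seeing the data. The value of −51.7 comes from lists with fewer places, so its size cannot be compared with that on whole lists. The causes of these changes were not tested.

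Replicate numbers in the labels share only a number. With the replicate number as a block, the gene-end difference stayed −11.8 points (exact permutation p = 0.0741), and the other 3 differences keep their values by construction (4.17, 0.862 and −506). With 2 libraries a group and unknown depth, a missing summit in a short list does not show closed chromatin.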

Other observations

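Outside chromosomes 1 to 19 and X, 337 regions were formed from the same lists. Of these, 4 had a summit in all 4 day 10 libraries and in none of the earlier ones, 3 on Y and 1 on the mitochondrial genome, and 7 had one in all 12 libraries.

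A day 10 only region overlapped the miRNA gene Mir6236 (chr9:110281265-110281337), with a mean rank of 160.5 and no earlier summit within 1 kb. Another overlapped the snoRNA gene Snord116l11 in the Snrpn group (chr7:59902289-59902459), at 1510 and 860 in KO and 2358 and 1053 in Control libraries. The day 10 only region at Oasl1 touches the start-site window of Gm13822, of whose 271 stretches of 30 bases 24 also occur in other promoter windows, in up to 6 of them. In the other windows touched, 0 of 271 did.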
